A study of Homo sapiens with 24 samples.

Results

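Transfer RNA genes are short genes, transcribed by RNA polymerase III, whose products carry amino acids to the ribosome. Their promoter lies inside the gene, in the A box and the B box, which the factor TFIIIC recognises before TFIIIB and the polymerase are recruited. The human genome holds many near-identical copies of them, and a large cluster lies beside the histone genes on chromosome 6. The loci described here are the nuclear tRNA records of the RefSeq annotation (GRCh38.p14) on chromosomes 1 to 22, each with 500 bases on either side, chosen by annotation alone. There were 439 such loci among 465 tRNA records. The 22 mitochondrial records and the 4 records on the X chromosome were left out. For scale, the peaks of all libraries merged into 79570 regions.

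The peaks came from CUT&RUN, which maps where a protein sits on chromatin by antibody-guided cutting of DNA, in cells of the established human line HUDEP-2, which are immortalised erythroid progenitors, expanded with no further treatment. Each of 3 edited cell populations is 1 clone, so a clone's own features cannot be told apart from those of its tag. In clone T the nuclear receptor TR4 carries FLAG and MYC tags, in clone B the repressor BCL11A carries HA and MYC tags, and in clone TB both proteins are tagged. The 24 libraries were 7 groups of 3, named by antibody and clone (MYC_T, TR4_T and TR4_TB, together the 9 TR4-directed libraries; MYC_B, HA_B and HA_TB, together the 9 BCL11A-directed libraries; MYC_TB, in which both proteins carry the MYC tag), and 1 IgG library from each clone. Of 10 erythroid marker genes, 3, 2 and 2 had a peak within 1 kb of an end in MYC_T, TR4_T and TR4_TB, and 8 had one in each of MYC_B, HA_B and HA_TB, where 27.9%, 26.2% and 28.7%, and then 45.9%, 43.4% and 40.3%, of all protein-coding genes did. For KLF1 8 TR4 and 9 BCL11A lists held a peak, and for GATA1 0 and 9. Of 4 T cell markers 1, CD8A, had a peak in MYC_T and none had one in the other groups, and no B cell, myeloid, hepatocyte or neuron marker had one in any group.

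A locus counted as having a peak in a group when 2 or more of the group's 3 libraries listed a peak sharing at least 1 base with its window. The loci were divided into 3 classes: 144 in the chromosome 6 cluster (chr6:26286526-28989083), 52 within 1 kb of an end of a protein-coding gene, and 243 others. The windows are not independent, since 131 loci lay in windows that overlapped those of neighbours, up to 4 together. The number of peaks per list differed widely, from 4621 to 31432 in the target libraries and from 2036 to 4828 with IgG, and replicate 3 had the shortest list of every group. Depth is unknown, so group counts below are read against the same counts at other annotated features where these were made.

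For 14 loci the whole tRNA record fell inside a RefSeq promoter window (GRCh38.p14, 250 bases before to 50 after a gene start) and could be read. The records below are from loci with and without peaks in their windows, whether or not a peak lay on the record itself. They are written 5′ to 3′ on the strand that carries the B box. Capitals mark the B box, searched as GTTCNANNC, and, where its consensus was found, the A box.
TRT-TGT6-1: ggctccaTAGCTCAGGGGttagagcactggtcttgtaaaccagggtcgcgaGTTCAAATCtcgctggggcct
TRR-ACG2-1: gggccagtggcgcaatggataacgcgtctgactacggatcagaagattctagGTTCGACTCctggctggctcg
TRG-CCC2-2: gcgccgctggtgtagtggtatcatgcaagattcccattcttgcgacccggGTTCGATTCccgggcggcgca
TRF-GAA1-5: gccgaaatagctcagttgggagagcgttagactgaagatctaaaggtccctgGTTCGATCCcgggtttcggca
TRA-AGC2-2: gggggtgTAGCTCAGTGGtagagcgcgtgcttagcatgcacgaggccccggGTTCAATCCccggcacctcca
TRL-AAG2-2: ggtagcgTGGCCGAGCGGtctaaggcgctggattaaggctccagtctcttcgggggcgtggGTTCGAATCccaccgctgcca
TRP-TGG3-5: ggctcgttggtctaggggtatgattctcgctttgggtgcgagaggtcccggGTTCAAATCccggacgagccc

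The first 4 of these records had a peak in most target libraries and the last 3 in none. TRT-TGT6-1, a threonine tRNA gene (chr5:181191687-181191758, minus strand), had a peak in 20 of 21 libraries. TRR-ACG2-1, an arginine tRNA gene (chr3:45688999-45689071, minus strand), had one in 19, TRG-CCC2-2, a glycine tRNA gene (chr16:636736-636806, minus strand), in 18, and TRF-GAA1-5, a phenylalanine tRNA gene (chr13:94549650-94549722, minus strand), in 14. TRA-AGC2-2 (alanine; chr6:28863685-28863756) and TRL-AAG2-2 (leucine; chr6:28943622-28943703) lie in the chromosome 6 cluster, and TRP-TGG3-5 (proline; chr16:3188094-3188165) lies near the end of OR1F1. All 14 records held the B box, on 1 strand only, so its presence did not separate loci with peaks from loci without. The A box pattern was found in 3 of the 14, namely TRT-TGT6-1, TRA-AGC2-2 and TRL-AAG2-2. After the records had been read, the pattern was loosened by leaving open a position that had been fixed as G, and this found 5 of the 14. The looser pattern was written to suit these sequences, so its count is no independent evidence; the capitals use the first pattern. Over 33725 RefSeq promoter windows, either strand, the B box letters occurred in 7.4%, the first A box letters in 4.71% and the loosened ones in 11.2%. The nuclear receptor motif AGGTCA occurred in the windows of 2 of the 14 loci and in 13.8% of all promoters, and TGACCA in 0 of the 14 and in 10.6%.

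More tRNA loci carried BCL11A-directed peaks than TR4-directed peaks. Of the 439 loci, 64 had a peak in MYC_T, 41 in TR4_T and 35 in TR4_TB, against 152 in MYC_B, 131 in HA_B and 115 in HA_TB, and 156 in MYC_TB. As shares these were 14.6%, 9.34% and 7.97% in the TR4-directed groups and 34.6%, 29.8% and 26.2% in the BCL11A-directed groups. The same 500-base windows around protein-coding gene ends had a peak in 13.3%, 12.4% and 13.7% of cases for MYC_T, TR4_T and TR4_TB, and in 22.6%, 21.2% and 19.5% for MYC_B, HA_B and HA_TB (21.6% for MYC_TB). Around snRNA, snoRNA and miRNA records of up to 200 bases the shares were 3.99%, 3.53% and 4.56% for the TR4-directed groups, 7.13%, 7.2% and 7.2% for the BCL11A-directed groups, and 7.26% for MYC_TB. The tRNA shares lay above those of short RNA records in all 7 groups. They lay above those of gene ends, 5′ and 3′ together, in MYC_TB and the BCL11A-directed groups, near them in MYC_T, and below them in TR4_T and TR4_TB. Of the 5′ ends of known strand alone, 26.8%, 25.2% and 28% had a peak in the TR4-directed groups. In the BCL11A-directed groups 44%, 41.5% and 38.4% had one, and in MYC_TB 42.4%. The tRNA shares lay below these in all 7 groups, and above those of 3′ ends (1.41% to 3.48%). These shares were compared as descriptions, with no test.

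Per library, the TR4-directed lists held a peak at 49.9 ± 25.4 loci (SD, n = 9; 23 to 89, median 42) and the BCL11A-directed lists at 130 ± 45.5 (SD, n = 9; 57 to 193, median 140). The highest TR4-directed library (89) lay above the 3 lowest BCL11A-directed libraries (57, 82 and 87), so the sets overlapped. The difference of 80.4 loci, lower with TR4, gave p = 0.000617 in a two-sided exact permutation test, whose smallest possible p is 4.11e-05. With every list limited to its 4621 strongest peaks the difference fell to 6.44 loci (p = 0.0103, same exact test), and with these lists of equal length 26, 19 and 20 loci had a peak in MYC_T, TR4_T and TR4_TB and 27, 23 and 29 in MYC_B, HA_B and HA_TB. Loci per 1000 peaks were 4.79 ± 1.00 (SD, n = 9) with TR4 and 5.60 ± 0.476 (SD, n = 9) with BCL11A. Whether replicate libraries stem from separate cultures is not stated, so these p-values reflect only the spread between libraries, which may be technical.

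No single pair of groups passed the test. Among the 6 pairs compared, the TR4 and HA antibodies in clone TB stood furthest apart in proportion, with 27, 40 and 47 loci for TR4_TB and 87, 134 and 140 for HA_TB, which do not overlap; the exact permutation p was 0.1, the smallest that 3 against 3 libraries allow (adjusted p = 0.6). MYC_T had 25, 82 and 89 loci and MYC_B had 82, 173 and 193 (exact permutation p = 0.3, adjusted p = 0.75). Antibodies against the same tagged protein gave closer counts: TR4_T averaged 19 loci fewer than MYC_T, HA_B 28 fewer than MYC_B, TR4_T 8.33 more than TR4_TB, and HA_B 1 more than HA_TB (adjusted p = 0.75 to 1 in exact permutation tests). Replicate numbers paired the libraries of HA_B and MYC_B, and HA_B had 24, 35 and 25 fewer loci in replicates 1, 2 and 3 (149 against 173, 158 against 193 and 57 against 82). Fewer loci were thus found with HA in 3 of 3 pairs, but an exact sign-flip permutation test of 3 pairs cannot go below p = 0.25 (adjusted p = 0.375).

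**Figure D1:**
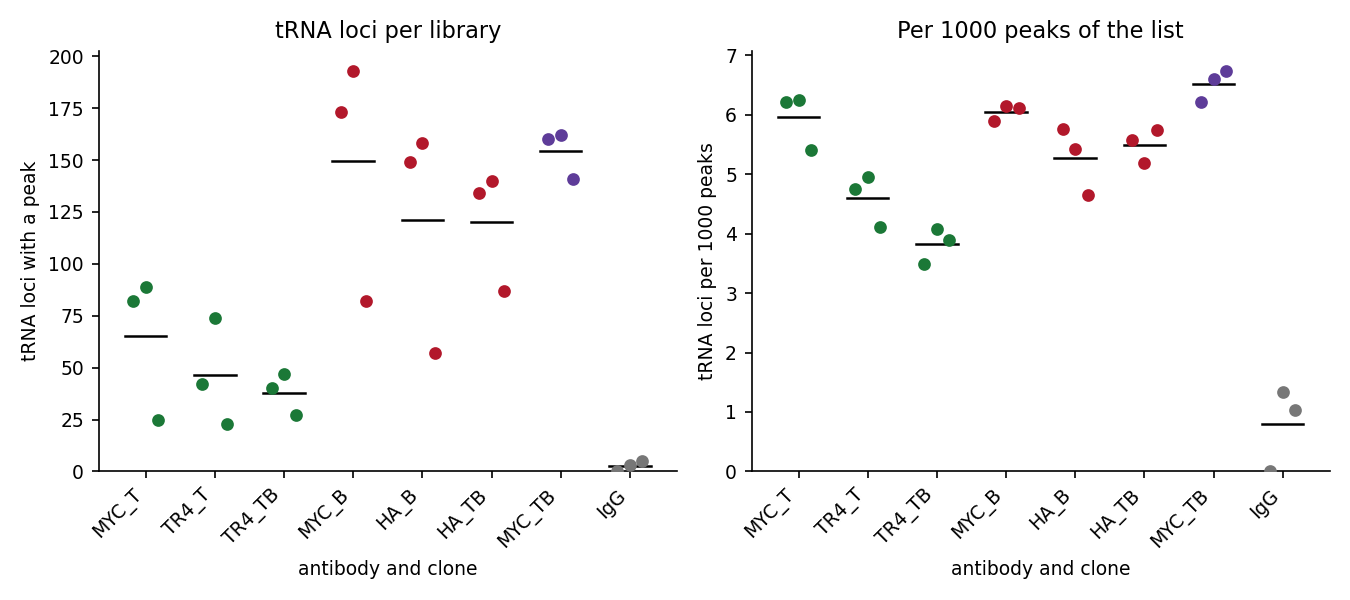
Number of tRNA loci with a peak in each library (left) and the same number per 1000 peaks of that library's list (right), by antibody and clone; points are libraries and lines group means. TR4-directed libraries (green) run from 23 to 89 loci, BCL11A-directed libraries (red) from 57 to 193, MYC_TB (purple) from 141 to 162 and IgG (grey) from 0 to 5.

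IgG peaks were rare at these loci. The IgG libraries of clones TB, T and B had peaks at 0, 3 and 5 loci, and no locus had a peak in more than 1 of them. The 8 loci were 4 in the chromosome 6 cluster, 2 near gene ends and 2 others. TRG-CCC2-1, a glycine tRNA gene 198 bases from an end of TIA1, was the one of these with the most target peaks: its IgG fold enrichment was 5.78, against 20.9 to 115 over the 9 TR4-directed libraries and 5.98 to 12.4 over the 7 BCL11A-directed libraries with a peak. TRP-CGG1-1, TRX-CAT1-6, TRP-CGG2-1 and TRP-AGG2-1 had target peaks in 10, 8, 7 and 2 of the 21 libraries beside their single IgG peak. Fold enrichments here and below are the authors' values per peak, the strongest peak of the window being taken, and serve to describe a peak within its own list.

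The 3 classes of loci differed in the same order in both sets. Near gene ends 17 of 52 loci had a peak in MYC_T, 17 in TR4_T and 16 in TR4_TB, and 33 had one in MYC_B, 31 in HA_B, 28 in HA_TB and 38 in MYC_TB. In the chromosome 6 cluster the counts of 144 loci were 10, 4 and 2, then 27, 18, 19 and 21. Among the 243 others they were 37, 20 and 17, then 92, 82, 68 and 97. In TR4-directed libraries a mean of 4.55% of cluster loci, 10.97% of other loci and 32.1% of gene-end loci had a peak, and in BCL11A-directed libraries 15.7%, 32.1% and 57.1%.

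Cluster loci carried fewer peaks than other loci in all 18 libraries. The difference was 6.42 ± 2.39 percentage points lower (SD, n = 9) with TR4 and 16.5 ± 2.14 lower (SD, n = 9) with BCL11A, each with p = 0.00391 in an exact sign-flip permutation test over 9 libraries, the smallest it allows (adjusted p = 0.00469 over 6 class comparisons). In percentage points the gap was wider with BCL11A, by 10.1 points (exact permutation p = 4.11e-05, the smallest possible; adjusted p = 0.000247). As a ratio the order was the other way: the cluster's share was 0.415 of that at other loci with TR4 and 0.487 with BCL11A, a difference that was not tested. With lists of equal length the gaps were -2.69 and -7.16 points and differed by 4.46 points (adjusted p = 0.000123, exact permutation test), and with overlapping windows merged they were -6.63 and -11.1 and differed by 4.51 points (adjusted p = 0.00469, exact permutation test). Among loci of families with 1 copy, an alternative chosen after the data were seen, the gap differed by 2.29 points between the targets (adjusted p = 0.116, exact permutation test). Gene-end loci carried more peaks than other loci in all 18 libraries, by 21.1 ± 5.43 points (SD, n = 9) with TR4 and 24.9 ± 11.3 (SD, n = 9) with BCL11A (adjusted p = 0.00469 each, exact sign-flip permutation test). The 2 gene-end differences were not shown to differ from each other (-3.83 points, TR4 minus BCL11A; exact permutation p = 0.374).

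The gene-end result for BCL11A depended on list length. In lists limited to their 4621 strongest peaks, gene-end loci exceeded other loci by 14.6 points with TR4 (adjusted p = 0.00469) and by 0.394 points with BCL11A (adjusted p = 0.680), and the targets then differed by 14.2 points (adjusted p = 0.000123, exact permutation test). When the peak had to touch the tRNA record itself, the BCL11A difference was 2.07 points (adjusted p = 0.590, exact sign-flip permutation test).

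**Figure D2:**
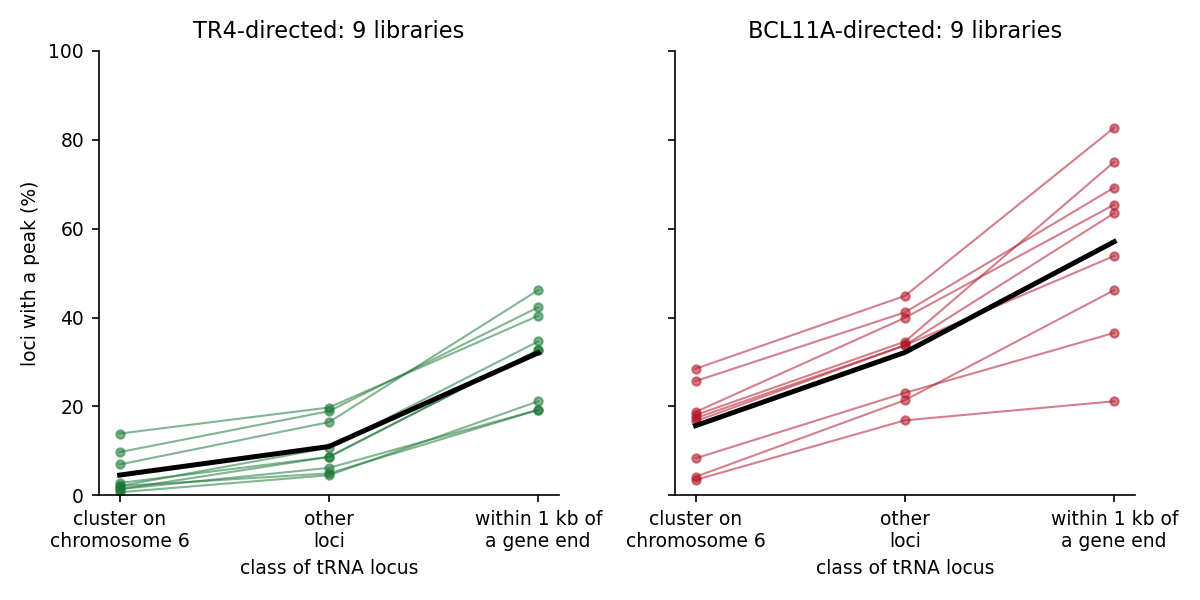
Percentage of tRNA loci with a peak in the chromosome 6 cluster, at other loci and within 1 kb of a gene end; each thin line is 1 library and the black line the mean. Every line rises from the cluster to the gene-end class, to means of 32.1% with TR4 and 57.1% with BCL11A.

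Gene-end loci sit where peaks are common in general. Of the 52, 34 lay at a 5′ end, where RNA polymerase II promoters are found, 8 at a 3′ end and 10 at an end whose strand was not known. At 5′ ends 15 loci had a peak in each of MYC_T, TR4_T and TR4_TB, and 24, 23 and 22 in MYC_B, HA_B and HA_TB. Of the 15100 protein-coding 5′ ends of known strand, 26.8%, 25.2% and 28% had a peak within 500 bases in the TR4-directed groups and 44%, 41.5% and 38.4% in the BCL11A-directed groups. At 3′ ends 1, 1 and 0 of the 8 loci had a peak in MYC_T, TR4_T and TR4_TB, where 1.56%, 1.41% and 1.42% of the 15100 3′ ends of known strand did, and 3, 3 and 2 in MYC_B, HA_B and HA_TB, where 3.48%, 3.22% and 2.9% did. MYC_TB had a peak at 26 of the 34 loci at 5′ ends and 5 of the 8 at 3′ ends, against 42.4% and 3.19% of the ends of known strand. The windows behind these shares are not alike. Those of the tRNA loci surround a record up to 1 kb from the end, while those of the gene ends surround the end itself. Each gene-end locus was paired with each library that had a peak in its window. The summit of the strongest peak was nearer to the tRNA record than to the gene end in 46% of pairs with TR4. With BCL11A it was nearer to the record in 49.1%. At other loci the shares were 99.6% and 99%. Those loci lie more than 1 kb from any protein-coding gene end, so their shares follow largely from how the classes were drawn. Over all loci the median distance from summit to record was 179 bases with TR4 and 153 with BCL11A.

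There were 3 gene-end loci with peaks in all 21 target libraries. TRG-TCC1-1, a glycine tRNA gene (chr19:4724070-4724141) 228 bases from an end of DPP9, had fold enrichments of 148, 160 and 42.9 in MYC_T, 92, 128 and 26.8 in TR4_T, and 240, 246 and 124 in TR4_TB. In BCL11A-directed libraries its folds ran from 3.60 to 10.5. Ranked within its own list, its peak stood at a median percentile of 98.9 with TR4 (91.5 to 99.8) and 47.2 with BCL11A (1.40 to 67.1), so the ranges did not overlap. The TR4-directed summits lay a median of 10 bases from the gene end and 218 bases from the tRNA record, and in 0 of 9 libraries was the summit nearer to the record. TRI-TAT1-1, an isoleucine tRNA gene (chr19:39412168-39412260) 409 bases from an end of PLEKHG2, ranked at a median percentile of 85.0 with TR4 and 86.2 with BCL11A, and its summits were nearer to the record than to the gene end in 9 of 9 libraries of each set. TRR-CCT4-1, an arginine tRNA gene (chr7:139340700-139340772) 228 bases from an end of LUC7L2, ranked at 65.2 with TR4 and 74.1 with BCL11A.

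TRQ-CTG1-4, a glutamine tRNA gene (chr15:65869062-65869133) 358 bases from an end of RAB11A, resembled the DPP9 locus. Its folds were 83.7, 98.1 and 29.1 in MYC_T, 75.4, 108 and 41.1 in TR4_T and 91.1, 106 and 70.6 in TR4_TB, and 7.19 to 15.2 over 8 BCL11A-directed libraries. Its TR4-directed summits lay a median of 82 bases from the gene end. TRX-CAT1-1, an initiator methionine tRNA gene (chr1:153671250-153671321) near ILF2, and TRR-ACG2-1, near SACM1L, each had peaks in 7 TR4-directed and 9 BCL11A-directed libraries.

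Away from gene ends, TRF-GAA2-1, a phenylalanine tRNA gene (chr11:59566380-59566452), was the other locus with peaks in all 21 libraries. Its folds were 26.4, 33.5 and 11.4 in MYC_T, 27.2, 26.5 and 12.5 in TR4_T, and 5.85, 7.43 and 8.64 in TR4_TB, and 6.78 to 24.5 with BCL11A. TRT-TGT6-1, printed above, had folds of 48.1, 55.1 and 9.34 in MYC_T, 11, 14.9 and no peak in TR4_T, and 8.35 to 19.7 in the 9 BCL11A-directed libraries. Its TR4-directed summits lay inside the record in 4 of 8 libraries. TRM-CAT6-1, an elongator methionine tRNA gene (chr16:87384022-87384094), had peaks in 9 libraries with TR4 and 8 with BCL11A. TRT-AGT1-3 (threonine; chr19:33177057-33177130), TRT-CGT4-1 (threonine; chr17:31550074-31550145) and TRQ-TTG1-1 (glutamine; chr17:49192528-49192599) had 7 and 9 each. At TRT-AGT1-3 the peak ranked at a median percentile of 61.5 with TR4 and 95.7 with BCL11A.

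**Figure D3:**
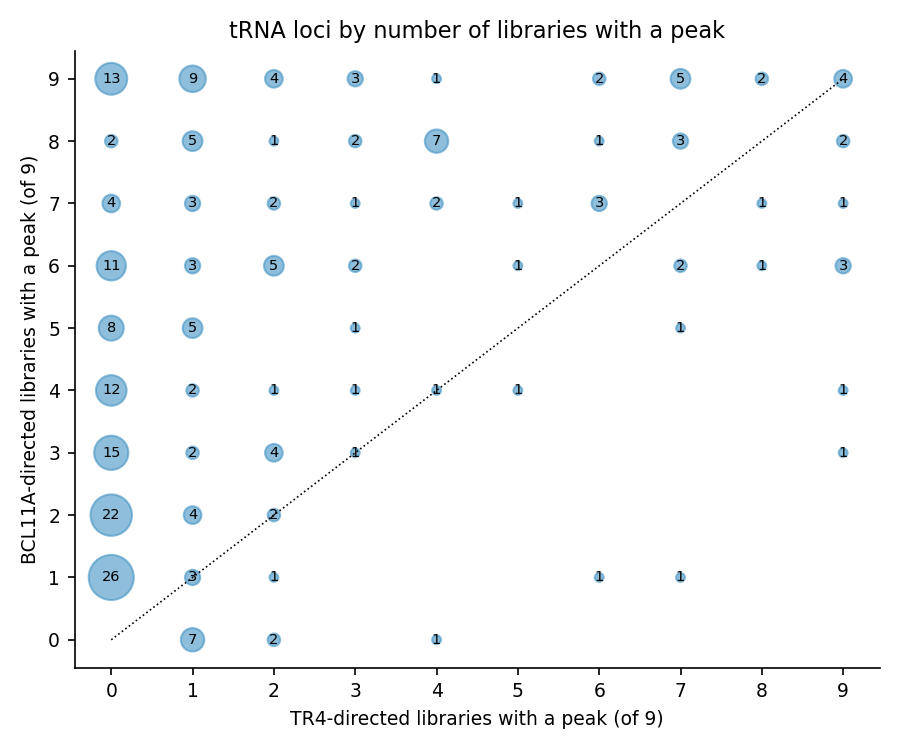
tRNA loci by the number of TR4-directed (x) and BCL11A-directed (y) libraries with a peak, each of 9; circle area and the printed number give the loci at that point, the dotted line marks equal numbers, and loci with no peak in either set are not drawn. 201 loci lie above the line and 27 below it.

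The TR4-directed loci were largely among the BCL11A-directed ones, whose lists were longer (mean 23089 against 10154 peaks). A peak was present in any TR4-directed group at 67 loci, in any BCL11A-directed group at 166, and in both at 60, which is 89.6% of the former and 36.1% of the latter. The 41 TR4_T loci were all among the 64 of MYC_T, and the 35 of TR4_TB all among the 156 of MYC_TB. Within clone TB, 29 loci were shared by TR4_TB and HA_TB, which is 82.9% of the TR4_TB loci and 25.2% of the HA_TB loci. A peak in all 6 single-target groups was found at 24 loci. In contrast, 190 loci had no peak in any target library: 78 in the chromosome 6 cluster, 3 near gene ends and 109 others. Neither the overlaps nor the number without a peak was counted at other features. They are therefore not shown to be particular to tRNA loci.

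Region by region, the preference was for BCL11A, at tRNA loci as over all regions. Of 142 regions at tRNA loci that 4 or more of the 18 libraries listed and that had no IgG peak, 47 were preferred by BCL11A and 2 by TR4 (Fisher's exact test per region, two-sided, Benjamini-Hochberg adjusted p under 0.05 over all 24485 regions tested). These are 33.1% and 1.41% of the tRNA regions, where 25.6% and 2% of all regions were called. The median difference, BCL11A minus TR4, was 4 libraries both at tRNA regions and over all regions. Many of the 47 are regions of a single run on chromosome 1, described below, often at copies of the same tRNA gene family. They are counted separately. The 47 regions touched 63 loci. By class, 6 of 25 tested regions were BCL11A-preferred in the chromosome 6 cluster, 9 of 40 near gene ends and 34 of 82 at other loci; 5 tested regions, 2 of them BCL11A-preferred, touched loci of 2 classes and are counted in both. Without the MYC libraries 10 regions were BCL11A-preferred and 0 TR4-preferred, and with lists of equal length the counts were 11 and 11.

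The 2 TR4-preferred regions lay at TRC-GCA4-1 and TRL-TAG2-1. TRC-GCA4-1, a cysteine tRNA gene (chr17:38869292-38869363) 695 bases from an end of LASP1, had its region in 7 of the TR4-directed libraries and in 0 of the BCL11A-directed ones (adjusted p = 0.0130, Fisher's exact test). The strongest peak of its window had folds of 34.4 and 31.8 in 2 MYC_T libraries, 31.7 and 29.4 in 2 TR4_T libraries, 29.1, 23.3 and 6.95 in TR4_TB, and 9.73 in 1 HA_TB library. With TR4 its summit lay a median of 640 bases from the record and 55 bases from the end of LASP1, nearer to the record in 1 of 7 libraries. The neighbouring region at that end (chr17:38869733-38870168) was in 9 TR4-directed and 4 BCL11A-directed libraries and was not called (adjusted p = 0.0731, Fisher's exact test). TRL-TAG2-1, a leucine tRNA gene (chr14:20625370-20625451), had its region in all 9 with TR4 and in 3 with BCL11A (adjusted p = 0.0328, Fisher's exact test). The strongest peak of its window had folds of 8.44 to 29.2 and 5.60 to 8.29. The called region (chr14:20624746-20625055) ended before the record, and with TR4 the summit lay a median of 414 bases from it. The region over the record (chr14:20625240-20625525) was in 6 and 1 libraries and was not called (adjusted p = 0.115, Fisher's exact test). Without the MYC libraries neither call held (adjusted p = 0.0656 and 0.148, Fisher's exact test).

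The most one-sided loci formed a run on chromosome 1 (chr1:161399700-161540314), where 28 of 31 tRNA genes are glycine, glutamate, aspartate or leucine genes. A peak was present at 25, 23 and 21 of the 31 loci in MYC_B, HA_B and HA_TB, at 23 in MYC_TB, at 2 in MYC_T and at 0 in TR4_T, TR4_TB and IgG. All 9 BCL11A-directed libraries and no TR4-directed library had a peak at 12 loci. Many loci of the run are copies of the same tRNA gene families, such as TRE-CTC1 and TRG-TCC2. How reads of such copies were assigned is not known, so these loci may share reads and are not separate observations. TRG-TCC4-1 (glycine; chr1:161440171-161440242) and TRD-GTC2-1 (aspartate; chr1:161440825-161440896) shared their strongest peak, with folds of 25.7, 27.2 and 16 in MYC_B, 20.3, 21.3 and 13.8 in HA_B, and 19.8, 19.7 and 12.3 in HA_TB. Further along, the windows of TRE-CTC1-4, TRG-TCC2-4, TRD-GTC2-4 and TRL-CAG1-4, which also overlap, were touched by 1 region with the same split of 9 against 0 (Fisher's exact test, adjusted p = 0.000938). That region ended before the TRL-CAG1-4 record. A separate region over that record (chr1:161463620-161463934) had the same split and adjusted p. The run was picked out after its values were seen, so its extent is a description. With it left out, the TR4-directed libraries had 59.2 loci fewer than the BCL11A-directed ones (exact permutation p = 0.00329).

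Within the chromosome 6 cluster the peaks were unevenly spread. The 40 loci between 28500000 and 29000000 had a group peak at 1 locus in MYC_T and at none in the other groups. The median number of peaks of any kind in this stretch was 0 with TR4 and 2 with BCL11A, where the stretch from 27500001 to 28000000, with 32 loci, held 5 and 55. Lists also named peaks on alternate sequences of chromosome 6, 45 to 227 per TR4-directed library and 28 to 253 per BCL11A-directed library, and the part of reads assigned there in the low count was not tested. Without those 40 loci the cluster remained lower than other loci, by 4.99 points with TR4 and 11.1 with BCL11A (adjusted p = 0.00469 each, exact sign-flip permutation test), an alternative chosen after the data were seen.

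TRL-CAG1-7, a leucine tRNA gene (chr6:26521208-26521290), had the most libraries in the cluster, 20 of 21, with folds of 24.1, 14.2 and 12.8 in MYC_T and 33, 38.1 and 13.3 in HA_B. Its summits lay a median of 508.5 bases from the record with TR4 and 488 with BCL11A. The region beside the record (chr6:26521690-26522246) was in 8 TR4-directed and 9 BCL11A-directed libraries. The region over the record itself (chr6:26521155-26521360) was in 0 and 7, and was BCL11A-preferred (adjusted p = 0.0130, Fisher's exact test). TRV-AAC1-5, a valine tRNA gene (chr6:27753400-27753472), had peaks in 8 TR4-directed and 6 BCL11A-directed libraries and in none of replicate 3 of MYC_T, MYC_B, HA_B or HA_TB. TRV-CAC1-6 (valine) and TRR-ACG1-2 (arginine), both within 1 kb of an end of HMGN4, had 4 and 9, and 1 and 9. TRS-CGA3-1 (serine) and TRI-AAT2-1 (isoleucine) had 4 and 7 each.

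**Figure D4:**
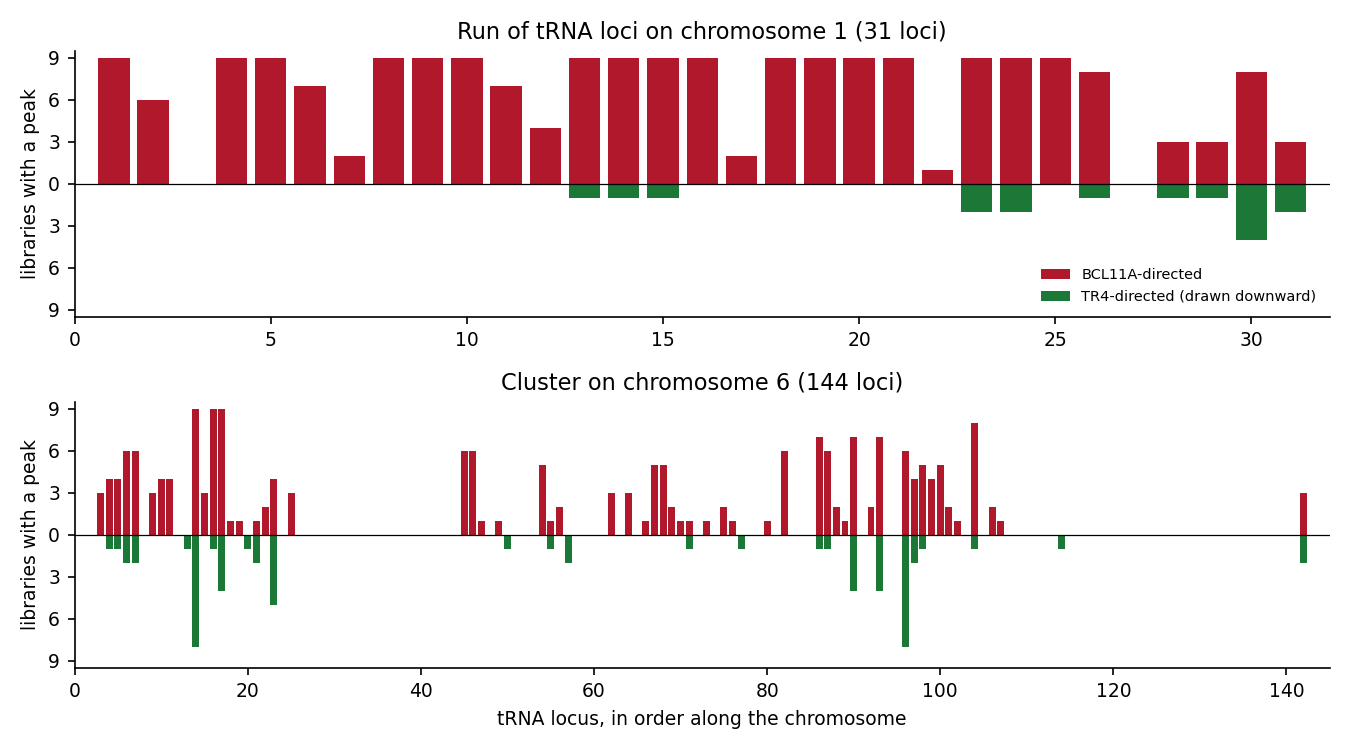
Number of libraries with a peak at each tRNA locus, in order along the chromosome, for the 31 loci of the chromosome 1 run (top) and the 144 loci of the chromosome 6 cluster (bottom); bars upward are BCL11A-directed and bars downward TR4-directed libraries, each of 9. The chromosome 1 run is filled upward and nearly empty downward, and the right-hand end of the cluster is nearly empty in both directions.

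By isotype, the amino acid a tRNA carries, BCL11A-directed peaks covered from 6.90% of 29 cysteine loci and 7.89% of 38 alanine loci to 65% of 20 glutamate and 76.9% of 13 aspartate loci. Over all 439 loci the share was 37.8% with BCL11A and 15.3% with TR4. In the chromosome 1 run 28 of 31 loci are glycine, glutamate, aspartate or leucine loci, and some neighbours there shared a peak. The part of that run in the isotype shares was not tested. TR4-directed peaks covered none of the 13 tyrosine and 9 histidine loci and 37.5% of the 8 initiator methionine loci. The elongator methionine loci were the one isotype with more loci under TR4 (3 of 11) than under BCL11A (2 of 11). Selenocysteine tRNA decodes a stop codon for the selenoproteins. The 2 records annotated for it differed, and whether both are working genes was not looked at. TRU-TCA1-1 (chr19:45478601-45478687) had a peak in all 9 BCL11A-directed and 3 TR4-directed libraries, with folds of 15.3, 12.8 and 5.39 in MYC_B, and its region was BCL11A-preferred (Fisher's exact test, adjusted p = 0.0328; 0.0656 without the MYC libraries). TRU-TCA2-1 (chr22:44150657-44150740) had none in any library.

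**Figure D5:**
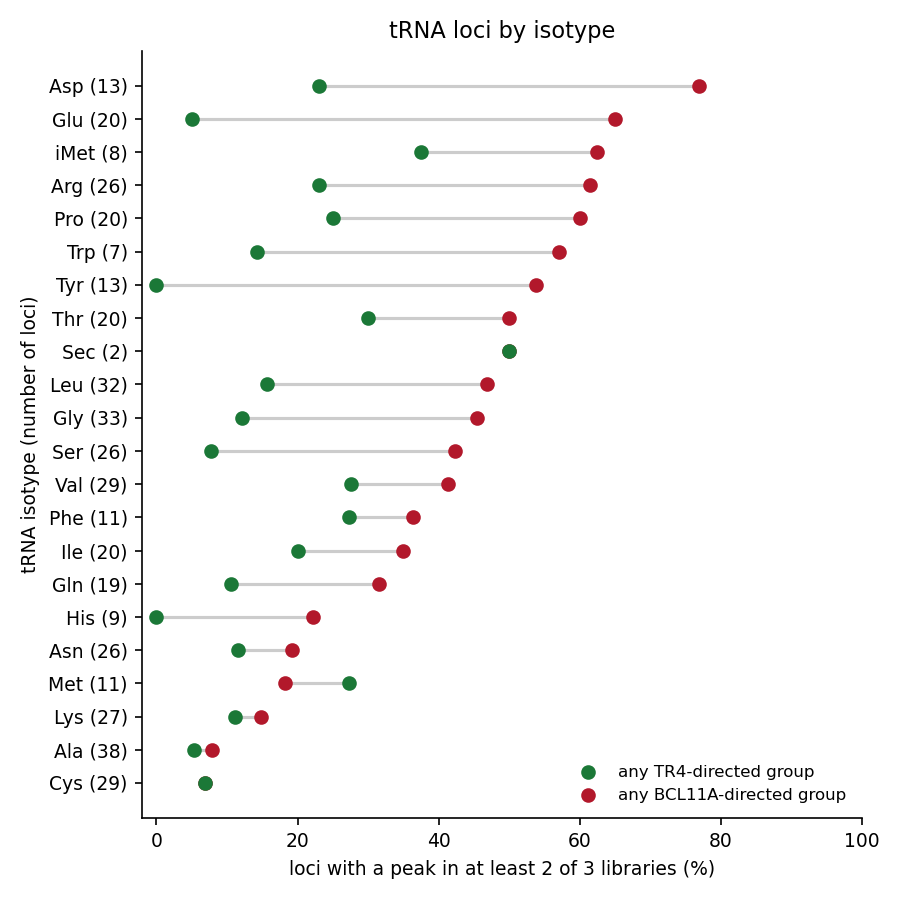
Percentage of tRNA loci of each isotype with a peak in at least 2 of 3 libraries of any TR4-directed group (green) or any BCL11A-directed group (red), with the number of loci in brackets. Aspartate, at 76.9%, and glutamate, at 65%, stand highest with BCL11A, and methionine alone stands higher with TR4. Over all 439 loci the shares are 37.8% with BCL11A and 15.3% with TR4.

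Loci were also divided by copy number. Those whose numbered family has several copies had a peak in any BCL11A-directed group in 50.2% of 217 cases and single-copy loci in 28.2% of 202, while any TR4-directed group gave 16.1% and 15.8%. How reads of near-identical copies were assigned is not known here, so a peak at 1 copy may hold reads of another, and its part in these shares was not tested.

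Genes that make or serve tRNAs carried peaks at their ends as well. Of 30 genes of the polymerase III machinery, 15 had a peak within 1 kb of an end in MYC_T, 11 in TR4_T and 14 in TR4_TB, and 23, 24 and 22 in MYC_B, HA_B and HA_TB, where the shares of all protein-coding genes were those given above for the erythroid markers. TBP, the TATA-binding protein, MAF1, a repressor of the polymerase, GTF3C1, a TFIIIC subunit, and SNAPC2 had peaks in all 18 libraries, while BDP1, a TFIIIB subunit, had none. Of 20 cytosolic aminoacyl-tRNA synthetase genes, which charge tRNAs, 13, 11 and 11 had a peak in MYC_T, TR4_T and TR4_TB. In MYC_B, HA_B and HA_TB 18, 17 and 17 had one. YARS1 and TARS1 had peaks in 9 libraries of each set, and SARS1 in 3 TR4-directed and 0 BCL11A-directed libraries. Of 21 tRNA processing and export genes, 7, 6 and 7 had a peak in MYC_T, TR4_T and TR4_TB, and 16, 14 and 15 in MYC_B, HA_B and HA_TB. Among them CLP1 had peaks in 9 libraries of each set and XPOT, a tRNA exporter, in 7 and 9. Over all protein-coding genes the shares were 27.9%, 26.2% and 28.7%, then 45.9%, 43.4% and 40.3%. The processing genes lay near these shares in the TR4-directed groups.

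Other genes of RNA polymerase III showed both patterns. Of 37 such records, 9 had a peak in MYC_T, 8 in TR4_T and 8 in TR4_TB, and 26, 24 and 20 in MYC_B, HA_B and HA_TB, in windows of 500 bases either side. Of 3029 short snRNA, snoRNA and miRNA records with the same windows 3.99%, 3.53% and 4.56%, and 7.13%, 7.2% and 7.2%, had one. RN7SL2, an RNA of the signal recognition particle, RPPH1, the RNA of RNase P, RNU6-2 and RNU6ATAC had peaks in all 9 libraries of both sets, and RN7SK and RMRP in 7 and 6 TR4-directed and all 9 BCL11A-directed libraries. RN7SL1 had them in 7 and 9 libraries, RNU6-9 in 8 and 8, and VTRNA1-1, a vault RNA gene, in 5 and 7. VTRNA1-3 and RNU6-8 had them in 2 and 6 each, and RNY5 in 1 and 6. RNY1 had a peak in 9 BCL11A-directed libraries and no TR4-directed one, RNU6-1 in 7 and none, and VTRNA1-2 and VTRNA2-1 in 4 and none. The 17 tandem 5S ribosomal RNA records had peaks in 2 to 7 BCL11A-directed libraries each and in 0 TR4-directed libraries. They are among the 37 records counted above. How reads of such repeated copies were assigned is not known, so they are not separate observations, and their part in the counts was not tested.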

How the data were processed

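The submitters' processing notes name MACS2 2.1.4, Bowtie2, Trimmomatic, SAMtools and Picard and the build GRCh38; their settings and the treatment of multiply mapped reads are not stated there. Each library has its own list of peaks, deposited by the authors with a fold enrichment (a linear ratio), a −log10 q-value and a summit offset per peak. Depth is unknown, and the number of peaks is the only value near it. The members and gene lists were chosen with earlier results of these data known.

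From these lists, peaks were matched to tRNA windows of 500 bases either side by an overlap of at least 1 base, with Python 3.11.15, numpy 2.4.6, pandas 2.3.3 and scipy 1.17.1. Gene positions came from the RefSeq table for GRCh38.p14. Libraries were compared with two-sided exact permutation tests, differences between classes with exact sign-flip permutation tests over libraries, and regions with Fisher's exact test, all adjusted by the Benjamini-Hochberg method. MYC_TB was left out of comparisons between targets because its antibody sees both proteins. The tests were checked on simulated data.

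Loci named in the text were the selenocysteine records; in each class the 6 without an IgG peak and with peaks in the most target libraries; up to 6 in each direction at target-preferred regions; and the 5 with peaks in the most target libraries among the loci with an IgG peak. From each gene list up to 4 members with peaks in the most libraries were named and, of the other polymerase III genes, all with a group peak. BDP1, SARS1, GATA1, KLF1, the chromosome 1 run and the likeness of TRQ-CTG1-4 to TRG-TCC1-1 were picked out after their values were seen. The A box pattern was searched in 2 forms, the looser one written after the 14 records had been read, and both counts are given.

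Replicate numbers appear in the labels. Same-numbered libraries correlated in their deviations from group means above 0.1 for all 3 numbers only between HA_B and MYC_B (0.152, 0.203 and 0.377), so numbers were treated as pairing libraries there only. Alternatives were equal list lengths, a stricter q-value, other windows and classes, MYC libraries left out, a replicate block and each library left out.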

Additional observations from a re-analysis of the deposited data

Results flagged for a closer look

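The TR4_T library of replicate 3 had the longest median distance from summit to tRNA record among the 9 TR4-directed libraries, 240 bases, far from the nearest of the others. The HA_B library of replicate 2 had the lowest difference between cluster and other loci among the 9 BCL11A-directed libraries, at -21.17 percentage points. Chance alone flags about 1 in 20 such groups.

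The difference between the chromosome 6 cluster and other loci was itself different between the targets, by 10.06 percentage points, in the test of that difference. With lists of equal length this was 4.46 points and with overlapping windows merged 4.51, and as a ratio to other loci the cluster stood lower with TR4 (0.415) than with BCL11A (0.487), which was not tested. Among the 4 X-chromosome tRNA records, which entered no comparison, TRV-TAC1-2 had a peak in 2 target libraries, both BCL11A-directed, and in 0 IgG libraries.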

How the results depend on the processing

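Peak lists carry no read counts, so what depth limits could be looked at only through list length. With equal list lengths 26, 19, 20, 27, 23, 29 and 36 loci had a peak in MYC_T, TR4_T, TR4_TB, MYC_B, HA_B, HA_TB and MYC_TB, regions preferred by TR4 and BCL11A numbered 11 and 11, the difference HA_B minus HA_TB was -3.67, and the excess at gene ends was 0.394 points with BCL11A and 14.2 points larger with TR4. At a −log10 q of at least 5, 4 regions were TR4-preferred. With 0 bases either side the counts were 33, 17 and 16 in MYC_T, TR4_T and TR4_TB and 70 and 52 in HA_B and HA_TB, the gene-end excess with BCL11A was 2.07 points, and it was 5.32 points larger with TR4. With overlapping windows merged HA_B minus HA_TB was -1 and the gene-end excess differed between targets by -11.97 points (adjusted p = 0.0227, exact permutation test); with gene ends within 2 kb it differed by -10.07 points (adjusted p = 0.0415, exact permutation test). A peak in 3 of 3 libraries left 25, 19, 22, 82 and 54 loci in MYC_T, TR4_T, TR4_TB, MYC_B and HA_B. Testing every region left 1 TR4-preferred region, and leaving out the MYC libraries left 0 and 10 regions preferred by TR4 and BCL11A.

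With the replicate block the class differences kept their values of -6.42, -16.5, 21.1 and 24.9 points, but flipping signs by 3 replicate numbers cannot give an adjusted p under 0.25, so that test says nothing about their stability. With the block BCL11A-preferred regions numbered 50 and TR4-preferred regions 2, and no other comparison of libraries or classes changed its side of the threshold. Among loci of single-copy families, chosen after seeing the data, 30, 20, 17, 52, 44, 36 and 56 loci had a peak in the 7 groups in the order above, from fewer loci by construction, and the cluster difference between targets was 2.29 points.

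Leaving out each library in turn, with a peak then required in both remaining libraries of the group, gave 25 to 64 loci in MYC_T, 19 to 41 in TR4_T, 22 to 33 in TR4_TB, 82 to 152 in MYC_B and 54 to 128 in HA_B. TR4-preferred regions numbered 2 to 5 and BCL11A-preferred regions 50 to 63. The difference HA_B minus HA_TB ran from -17.3 to 33.2, TR4_T minus TR4_TB from -5.5 to 20 and HA_B minus MYC_B from -61.7 to 4.17; none of these passed the test in any case. The difference between targets in loci per library ran from -89.6 to -72.6 and kept its side of the threshold in all 18 cases, as did the 6 class comparisons. The causes of these changes were not tested.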

Other observations

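All 7 tRNA loci of chromosome 19 had a peak in at least 1 TR4-directed group and in at least 1 BCL11A-directed group. Over all 439 loci the shares were 15.3% and 37.8%. On chromosome 19, TRF-GAA1-6, TRN-GTT2-6, TRG-TCC1-1, TRV-CAC3-1 and TRI-TAT1-1 are gene-end loci, the class with the largest shares. Neighbours among them shared regions. On chromosome 7, 20 of 22 loci had no peak in any target library, as had 43.3% of all loci. The 20 records without a family number had no group peak, and 19 of them had no peak in any target library. Of the 6 loci of the TRG-TCC2 family, all had a peak in a BCL11A-directed group and 1 in a TR4-directed group, and of the 7 loci of TRL-CAG1, 6 and 1. Most loci of both families lie in the run on chromosome 1. TRH-GTG1-3 and TRH-GTG1-9, and TRP-TGG3-2 and TRP-TGG3-5, are identical in sequence over the whole record.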
